A study of Mus musculus with 36 samples.

Results

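The genes described here are H3f3a and H3f3b, which both encode the histone variant H3.3, and 5 genes for the proteins that place it in chromatin: Hira, Ubn1, Ubn2 and Cabin1 of the HIRA complex, and Daxx. They are 7 of 21887 protein-coding genes on the named chromosomes, and were listed by name because the series includes stem cell lines labelled HiraKO, DAXXKO and H33DKO. Every peak over a gene or the 5 kb on either side of it was taken from 4 HA ChIP-seq peak lists, 1 library per group. All 4 come from mouse embryonic stem cells without a knockout: cells stably carrying a PiggyBac transgene for histone H4 with a 3HA tag and lysine 91 replaced by glutamine (H4K91Q) or by arginine (H4K91R), the same tagged histone unmutated (H4WT), and an empty PiggyBac vector. The other 32 of 36 samples were not analysed here, among them the knockout lines, so these lists show where tagged H4 lay on the genes and not what their loss does. Nothing in the sources used here says whether a line is a single clone or a pool, or how strongly the transgene is expressed beside the cell's own H4. The lists hold no expression values, so the labelled cell type was not checked against marker genes.

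Histone H3 and H4 enter chromatin together, as a dimer that a chaperone hands over to DNA. Canonical H3 is made in S phase and is placed behind the replication fork, whereas H3.3 is made throughout the cell cycle and is placed independently of replication. The HIRA complex places H3.3 mainly at active genes and regulatory elements, and DAXX with its partner ATRX places it at telomeres, pericentric repeats and silenced retroelements. A tagged H4 can be carried in by either route, and HA ChIP-seq recovers the DNA around it.

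The H3.3 genes differ in the DNA in front of their starts, and both are shown with a start of the HIRA complex that lay between separate H4WT peaks (Hira) and one that lay wholly under a peak (Ubn2). The runs are the 250 bases before each start, from RefSeq on GRCm38.p6, the assembly of mm10, read 5′ to 3′ on the strand of the gene. Capitals mark the CCAAT box, the GC box with the letters GGGCGG, the TATA box with the letters TATAAA, the cyclic AMP response element (TGACGTCA) and the palindromic NRF1 motif, each searched on both strands, so that a match on the other strand appears as the reverse complement.
H3f3a, chr1:180813606-180813855, minus strand: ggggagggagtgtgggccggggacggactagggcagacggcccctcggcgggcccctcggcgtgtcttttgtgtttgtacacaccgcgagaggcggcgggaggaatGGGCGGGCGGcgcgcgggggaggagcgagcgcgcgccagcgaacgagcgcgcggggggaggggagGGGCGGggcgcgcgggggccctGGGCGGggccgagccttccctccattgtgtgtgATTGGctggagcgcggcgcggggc
H3f3b, chr11:116024505-116024754, minus strand: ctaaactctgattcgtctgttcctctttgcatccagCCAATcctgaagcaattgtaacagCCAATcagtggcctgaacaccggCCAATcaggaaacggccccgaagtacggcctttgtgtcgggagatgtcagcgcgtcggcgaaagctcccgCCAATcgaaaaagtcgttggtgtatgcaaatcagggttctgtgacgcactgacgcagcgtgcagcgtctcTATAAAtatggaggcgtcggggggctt
Hira, chr16:18876500-18876749, plus strand: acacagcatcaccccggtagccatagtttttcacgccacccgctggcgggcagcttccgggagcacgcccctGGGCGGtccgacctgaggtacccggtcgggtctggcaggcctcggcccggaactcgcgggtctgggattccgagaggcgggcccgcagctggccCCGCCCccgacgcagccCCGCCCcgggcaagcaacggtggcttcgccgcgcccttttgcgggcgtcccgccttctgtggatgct
Ubn2, chr6:38433675-38433924, plus strand: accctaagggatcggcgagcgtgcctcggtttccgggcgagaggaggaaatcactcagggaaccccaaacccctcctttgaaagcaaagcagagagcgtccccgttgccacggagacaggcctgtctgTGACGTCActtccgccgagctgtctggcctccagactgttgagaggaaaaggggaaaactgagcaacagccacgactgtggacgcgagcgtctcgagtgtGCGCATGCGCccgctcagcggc
The H3f3a run holds 4 GC boxes, of which a pair overlaps, with 1 CCAAT box and 35 CpG dinucleotides, more than 96.2% of 21263 coding promoter windows of this length. The H3f3b run holds 4 CCAAT boxes, a TATA box 27 to 22 bp before the start and no GC box. Its 19 CpG are more than in 73.9% of these windows. The Hira run has 3 GC boxes, and the Ubn2 run has 1 cyclic AMP response element and 1 NRF1 motif. Of all windows, 35.4% hold a CCAAT box, 42.6% a GC box, 11.6% a TATA box, 1.92% a cyclic AMP response element and 1.07% an NRF1 motif. These matches describe the letters only, and the motifs were chosen after the sequences were read.

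The H4K91Q list held 14314 peaks, the H4K91R list 49155, the H4WT list 69158 and the empty-vector list 3007. Read numbers are absent from the lists and sequencing depth is therefore unknown, and a longer list can come from a deeper library. With 1 library per group no difference between groups has a replicate check and no test between groups was made. The authors' fold, the enrichment of the pulldown over the caller's background, ranks peaks within 1 list and was not set between lists. Exact (Clopper-Pearson) 95% intervals below cover counting only.

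H4K91Q had a peak at none of the 7 genes, H4K91R at 5, H4WT at all 7 and the empty vector at 1. Within a gene and 5 kb either side, H4K91R placed 12 peaks, H4WT 34 and the empty vector 1, over 418 kb in all. Of the protein-coding genes, 9.55% had an H4K91Q peak by this rule, 58.2% an H4K91R peak, 71.6% an H4WT peak and 8.96% an empty-vector peak, so the absence of H4K91Q from 7 genes is near the background. Peaks within 1 kb of an annotated gene end were found at 0 of 7 genes for H4K91Q, against 1.29% of all coding genes. H4K91R had one at 4 of 7 (57.1%, 18.4 to 90.1), against 38.3% of all coding genes. H4WT had one at 6 of 7 (85.7%, 42.1 to 99.6), against 58.9%, and the empty vector at 0 of 7, against 1.67%. The intervals of H4K91R and H4WT include the shares of all coding genes, so by the gene-end rule neither count stands apart from the background. In tagged lists of equal length, 14314 peaks each, H4K91R kept an end peak at 2 of the genes (H3f3a and Ubn1) and H4WT at 4 (these with Ubn2 and Daxx), against 14.2% and 29.7% of all coding genes.

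The 12 H4K91R peaks had folds of 4.12 to 8.09 with a median of 5.52, beside a median of 5.28 over the whole H4K91R list. The 34 H4WT peaks had folds of 3.29 to 12.8 with a median of 5.86, beside 5.70 over the whole H4WT list. Peaks of H4K91R at these genes were 215 to 1015 bp wide, and those of H4WT 189 to 1434 bp.

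**Figure D1:**
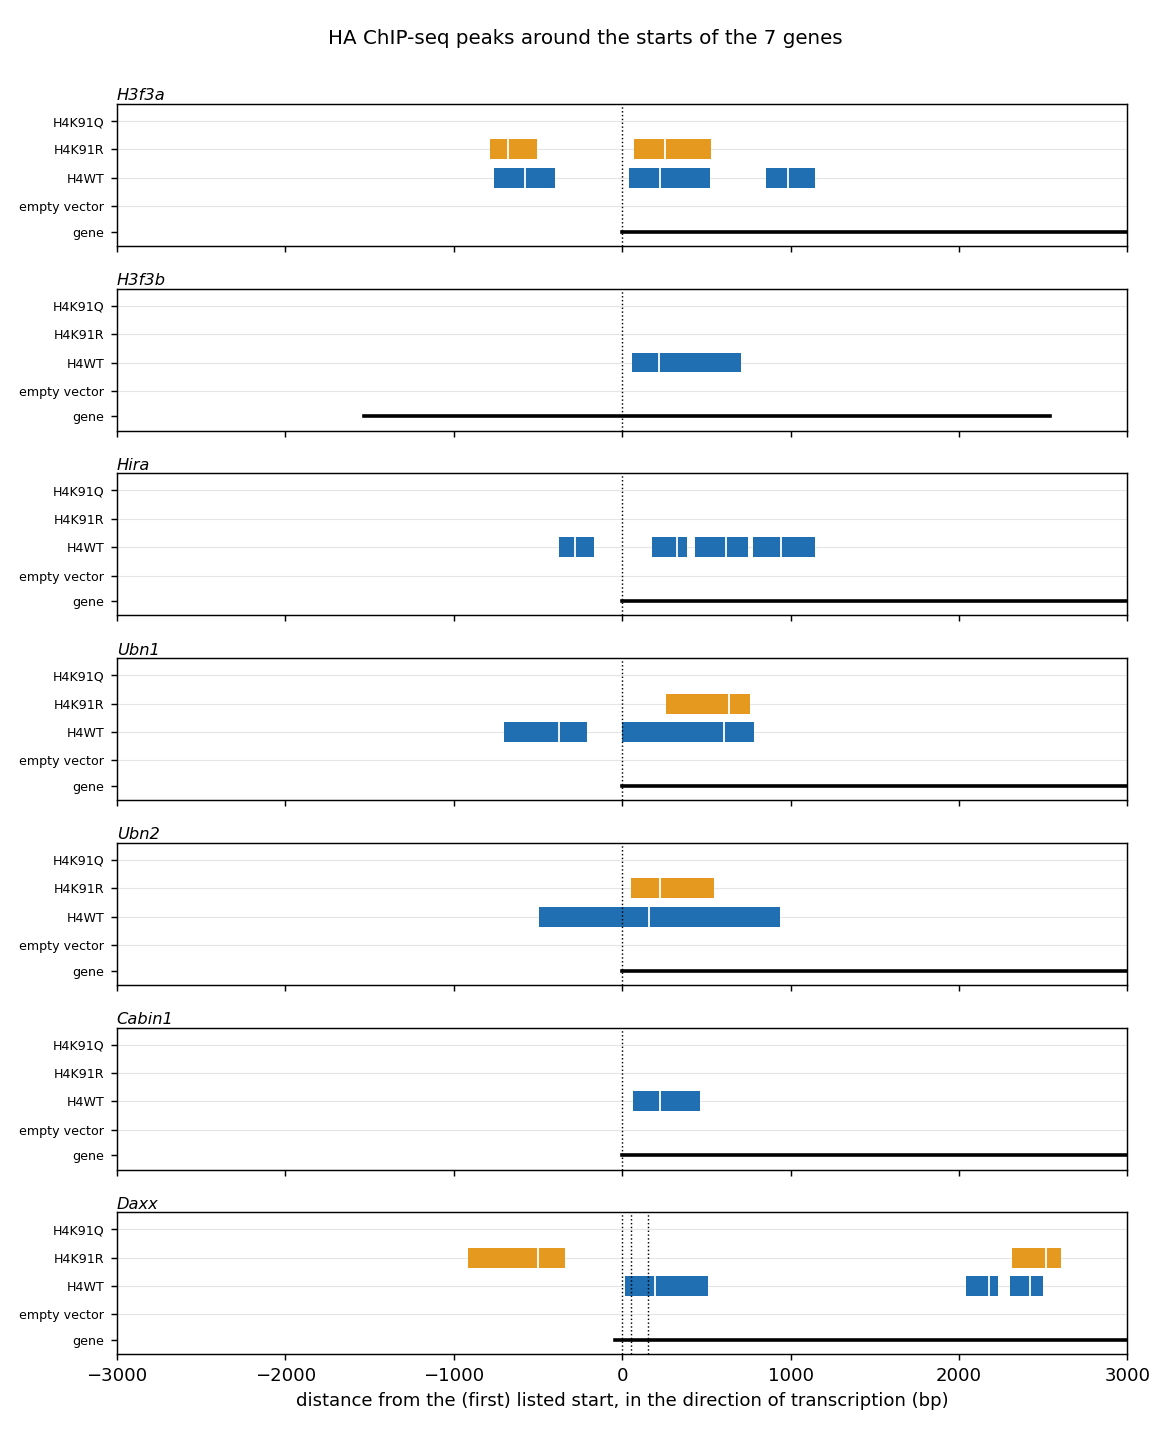
Peaks of the 4 libraries (rows, H4K91Q at the top and the empty vector at the bottom) within 3000 bp of the start of each gene. The x axis is the distance in bp from the first listed start in the direction of transcription, blocks are peaks, white ticks their summits, dotted lines the listed starts and black lines the annotated gene; H4K91R peaks lie at 4 of the starts, H4WT peaks at all 7, and the H4K91Q and empty-vector rows are empty.

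H3f3a carried the strongest H4WT peak of the 7 genes. It runs along chromosome 1 from 180802560 to 180813605 on the minus strand. H4K91R had 2 peaks, both of fold 5.59, 1 just inside the start (180813080 to 180813533) and 1 upstream of it (180814112 to 180814387). Each lay over an H4WT peak. The H4WT peak just inside the start (180813083 to 180813566) had an authors' fold of 12.8, above 99.2% of the H4WT list, and the upstream one (180814004 to 180814366) had a fold of 7.23. H4WT also had a peak further into the gene (180812461 to 180812752, fold 9.39) and one past its far end (180798789 to 180799044, fold 5.34), neither with an H4K91R peak. Neither H4K91Q nor the empty vector had a peak, and the nearest H4K91Q peak was 185 kb away.

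At H3f3a the start itself was left open in both lists. The H4K91R peaks stopped 507 bp before the start and began again 72 bp after it, a gap of 578 bp. The H4WT peaks stopped 399 bp before it and began again 39 bp after it, a gap of 437 bp. The 250 bases printed above fall wholly inside the H4WT gap. In H4K91R, H3f3a thus had peaks on both sides of an uncovered start, as did 2.77% of 17492 coding genes with a listed start. In H4WT this held for H3f3a and Hira, and for 5.89% of these genes. It held for none of the 7 genes in H4K91Q or the empty vector, against 0.0515% and 0.0% of these genes.

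H3f3b had 1 peak in all 4 lists together. The gene table runs it along chromosome 11 from 116021961 to 116026039, and the RefSeq start used for its promoter lies 1535 bp inside that outer end, so a rule on the table's ends misses it. The H4WT peak (116023798 to 116024446, fold 6.46, above 65.2% of the H4WT list) began 58 bp after the RefSeq start and ended 706 bp after it. Counted within 1 kb of listed starts in place of gene ends, H4K91Q was present at 0 of 7 genes, against 0.675% of all coding genes with a listed start. H4K91R was present at 4 of 7, against 35.3%, H4WT at 7 of 7, against 58.0%, and the empty vector at 0 of 7, against 0.858%. The nearest H4K91R peak lay 14.5 kb from H3f3b, inside the integrin gene Itgb4, and the nearest H4K91Q peak 259 kb away. Of the pair of H3.3 genes, H3f3a alone had H4K91R, and both had H4WT just downstream of the start. Whether that difference between the genes exceeds the error of a single library was not tested.

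Other genes carry H3f3 symbols, and their sequences were not compared with those of H3f3a and H3f3b. How the authors treated reads that map to several places is not given in the sources used here. The gene table holds H3f3c on chromosome 2, H3f3a-ps2 on chromosome 16 and H3f3a-ps1 on chromosome X. None of the 4 lists had a peak within 5 kb of any of the 3. By this rule 9.55% of coding genes had an H4K91Q peak, 58.2% an H4K91R peak, 71.6% an H4WT peak and 8.96% an empty-vector peak. H3f3a-ps1 and H3f3a-ps2 are pseudogenes, for which no such share was counted.

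Hira encodes the WD repeat protein that holds the HIRA complex together, and in the window searched it had peaks at the start only. The gene covers 93.6 kb of chromosome 16, from 18876750 to 18970309 on the plus strand. H4WT had 4 peaks: 1 upstream (18876373 to 18876584, fold 5.03) and 3 in a row inside the gene, at 18876926 to 18877137 (fold 4.54), 18877183 to 18877500 (fold 5.87) and 18877526 to 18877897 (fold 7.55). Of the 3 inner peaks, the one furthest from the start had the highest fold. The start lay in a gap of 341 bp. The upstream peak covered 85 of the 250 bases printed above and lay just inside Mrpl40, a mitochondrial ribosomal protein gene that is read the other way and begins 113 bp from the Hira start, so that peak is near the starts of both genes. Hira had no H4K91R, H4K91Q or empty-vector peak in the window.

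A place held by all 3 tagged histones lay just beyond the far end of Hira, outside the 5 kb window. H4K91Q had a peak 5.99 kb past the end (18976297 to 18976986, fold 8.48, above 93.5% of its list). H4K91R had one 5.80 kb past the end (18976109 to 18977012, fold 14.6, above 98.9% of its list), and H4WT one 6.06 kb past it (18976372 to 18977134, fold 10.1, above 94.8% of its list). The 3 peaks overlap, no annotated gene lies under them, and the empty vector had none. H4K91Q had 2 more peaks between there and 15 kb from Hira, of fold 3.75 and 6.19, the second overlapping an H4K91R peak of fold 6.99. Across the other members, H4K91Q came within 15 kb of none: its nearest peak was 50.9 kb from Daxx, 67.1 kb from Ubn2, 98.3 kb from Cabin1 and 237 kb from Ubn1. Over all coding genes the median distance to the nearest H4K91Q peak was 110 kb. The share of coding genes with an H4K91Q peak within 15 kb was not counted.

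Ubn1 and Ubn2 encode the ubinucleins, which bind H3.3 with H4 in the HIRA complex, and both had H4K91R and H4WT at the start. Ubn1 lies on chromosome 16 from 5050057 to 5086289 on the plus strand. The H4K91R peak at its start (5050319 to 5050816, fold 6.43) began 262 bp into the gene and lay inside the H4WT peak. The H4WT peak (5050055 to 5050839, fold 9.13) reached from 2 bp before the start to 782 bp after it. A second H4WT peak (5049358 to 5049850, fold 6.47) ended 207 bp upstream, just inside Glyr1, which is read the other way and begins 119 bp from the Ubn1 start. H4K91R had no peak there. In the body, an H4K91R peak of fold 5.20 and an H4WT peak of fold 4.19 overlapped 27.5 kb into the gene. A further H4WT peak of fold 7.31 lay past the far end, in the periplakin gene Ppl.

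Ubn2 had 1 H4K91R and 1 H4WT peak and nothing along the rest of its 78.8 kb. On chromosome 6, where the gene runs from 38433925 to 38512763 on the plus strand, the H4K91R peak (38433975 to 38434471, fold 5.68) was 497 bp wide and began 50 bp after the start. The H4WT peak (38433432 to 38434865, fold 9.44) was 1434 bp wide, the widest H4WT peak of the 7 genes, and covered all 250 bases printed above. H4WT thus reached 493 bp upstream of the start, where H4K91R had no peak.

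Cabin1, which encodes a calcineurin-binding protein that belongs to the HIRA complex, differed from Hira and Ubn2 in having peaks along its body. It covers 118 kb of chromosome 10, from 75646110 to 75764357 on the minus strand. H4K91R had no peak at either end. It had 2 body peaks, each over an H4WT peak, and 2 in the flank, in Susd2, that met no H4WT peak. H4WT had 10 peaks in the body, 2 near the ends and 1 in the flank, with folds of 4.07 to 11.4. In tagged lists of equal length 1 of these 13 peaks was left, the one of highest −log10 q, which overlaps an empty-vector peak. None of the 4 at Hira was left. With H4WT cut to the H4K91R length 9 of the 13 were left. Of 1516 coding genes of 75 to 125 kb, 9.17% had as many H4WT body peaks or more, the median was 1, and 37.2% had 0, as Hira and Ubn2 did. For H4K91R, 34.0% of these genes had 2 body peaks or more, the median was 1, and 44.4% had 0. The peak at the Cabin1 start (75763896 to 75764294) had a fold of 5.33, in the middle of its 13 H4WT peaks, and began 63 bp after the start.

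The highest Cabin1 peaks lay at a place that the empty vector also marked. At 96 kb from the start, H4K91R had a peak of fold 8.09 (75667314 to 75668328) and H4WT a peak of fold 11.4 (75667110 to 75668331). The empty vector, which makes no tagged histone, had a peak of fold 5.49 (75667662 to 75667876) inside both. This was the one place at the 7 genes where a tagged peak met an empty-vector peak. It took in 1 of the 34 H4WT peaks, beside 3.01% of the whole H4WT list. For H4K91R it took in 1 of the 12 peaks, beside 2.56% of the whole H4K91R list. Of all empty-vector peaks, 70.0% overlapped an H4WT peak and 43.2% an H4K91R peak. Without this place H4K91R had 11 peaks and H4WT 33 at the 7 genes. The next H4WT body peak by fold, 6.43, lay at 75657021 to 75657245.

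**Figure D2:**
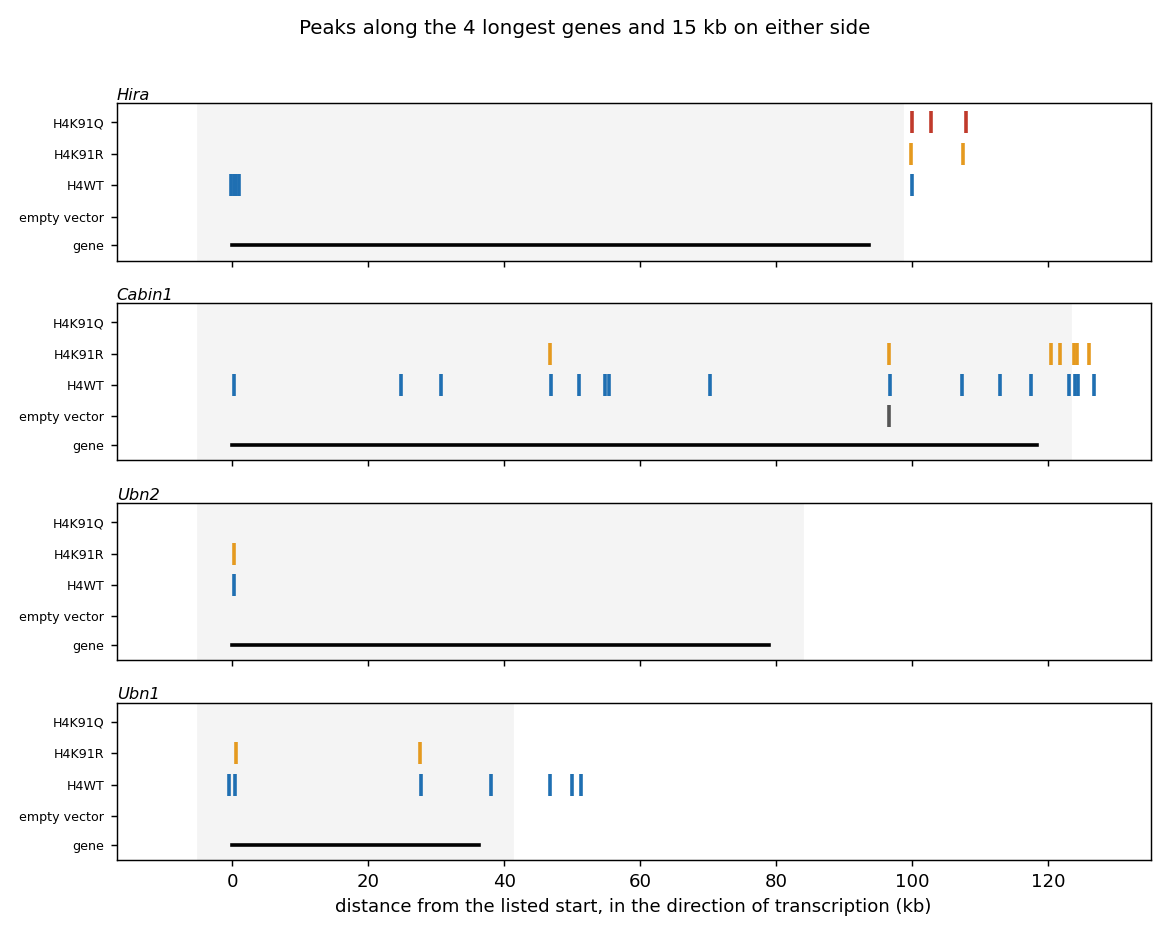
Peaks along Hira, Cabin1, Ubn2 and Ubn1 and 15 kb on either side; each tick is a peak of the library named on the row, the black line is the gene and the grey band the gene with 5 kb either side. The x axis is the distance in kb from the listed start in the direction of transcription; Cabin1 has 10 H4WT body peaks where Hira and Ubn2 have 0, and the H4K91Q ticks stand past the far end of Hira only.

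Daxx, the H3.3 chaperone that works with ATRX, had an H4K91R peak upstream of its listed starts and an H4WT peak over the last 2 of them. It lies on chromosome 17 from 33909404 to 33915590 on the plus strand and has 3 listed starts. The H4K91R peak (33908533 to 33909107, fold 5.16) ended 338 bp before the first of them. It lay just inside BC051226, a long non-coding RNA gene that is read the other way and begins 226 bp upstream of the annotated Daxx gene. That peak is therefore near the starts of both genes. The H4WT peak (33909461 to 33909957, fold 8.85, above 89.7% of the H4WT list) covered the last 2 starts, and its summit lay downstream of all 3. The 2 peaks did not overlap, so both lists called a Daxx end without sharing a place. How often this happens over all coding genes was not counted. Inside the gene, H4K91R had a peak of fold 7.52 (33911762 to 33912053), above 88.5% of its list. It overlapped the weakest H4WT peak at the 7 genes (33911745 to 33911944, fold 3.29), which was above 0.628% of the H4WT list. A neighbouring H4WT peak of fold 4.54 (33911488 to 33911676) had no H4K91R peak.

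Past the far end of Daxx, H4K91R had 1 peak of fold 4.35, in Zbtb22, a zinc finger gene that begins 586 bp after Daxx ends. It lay over an H4WT peak. H4WT had 4 peaks there with folds of 6.43 to 8.56, 3 in Zbtb22 and 1 where Gm19412 and the tapasin gene Tapbp overlap. These peaks fall in the 5 kb flank of Daxx but lie in other genes.

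**Figure D3:**
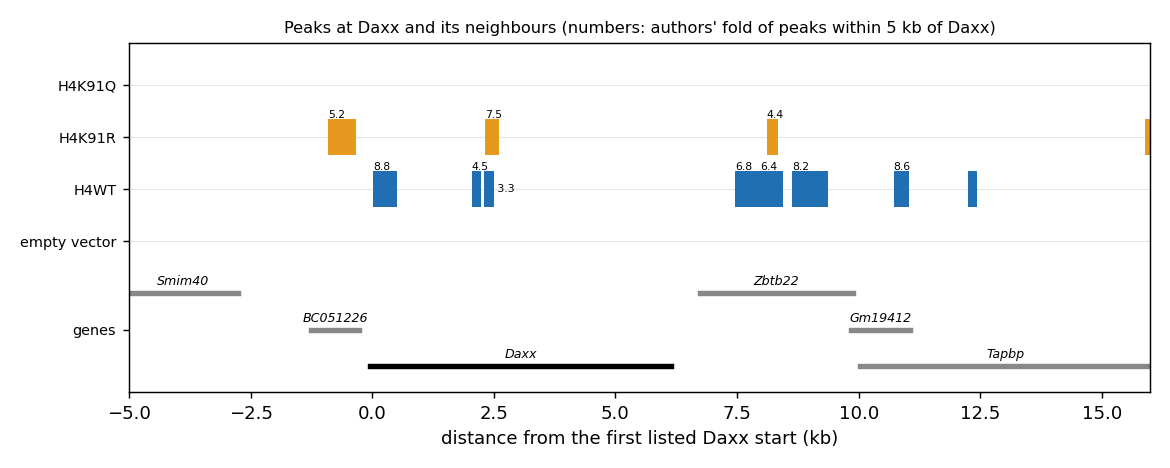
Peaks of the 4 libraries (rows, H4K91Q at the top) at Daxx and its neighbours, with the authors' fold beside peaks within 5 kb of Daxx; the x axis is the distance in kb from the first listed start. The H4K91R peak of fold 5.16 stands left of the start and the H4WT peak of fold 8.85 right of it.

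Where a peak lay at a start, its summit was mostly downstream. For H4K91R the highest peak within 1 kb of a start had its summit downstream at H3f3a (255 bp, tied in fold with the upstream peak), Ubn1 (636 bp) and Ubn2 (222 bp) and upstream at Daxx, against 77.8% downstream over 6181 coding genes with such a peak. For H4WT the summit lay after the start at all 7 genes, at 226 bp for H3f3a, 219 bp for H3f3b, 945 bp for Hira, 605 bp for Ubn1, 162 bp for Ubn2, 223 bp for Cabin1 and 38 bp past the last listed start for Daxx. Over 10144 coding genes with an H4WT peak there this held for 78.1%, with a median of 194 bp. The base of the start itself lay under an H4K91Q peak at 0 of 7 genes, against 0.343% of all coding genes with a listed start, and under an H4K91R peak at 0 of 7, against 12.4%. It lay under an H4WT peak at 3 of 7 (Ubn1, Ubn2 and Daxx), against 31.0%, and under an empty-vector peak at 0 of 7, against 0.131%. Of coding genes with a peak within 1 kb of a start, the start base was covered in 50.8% for H4K91Q, 35.2% for H4K91R, 53.4% for H4WT and 15.3% for the empty vector, beside 0 of 4 members for H4K91R and 3 of 7 for H4WT. Around all 21238 listed starts, H4K91R coverage was highest 250 bp after the start, at 17.9%, and H4WT coverage 150 bp after it, at 40.7%.

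**Figure D4:**
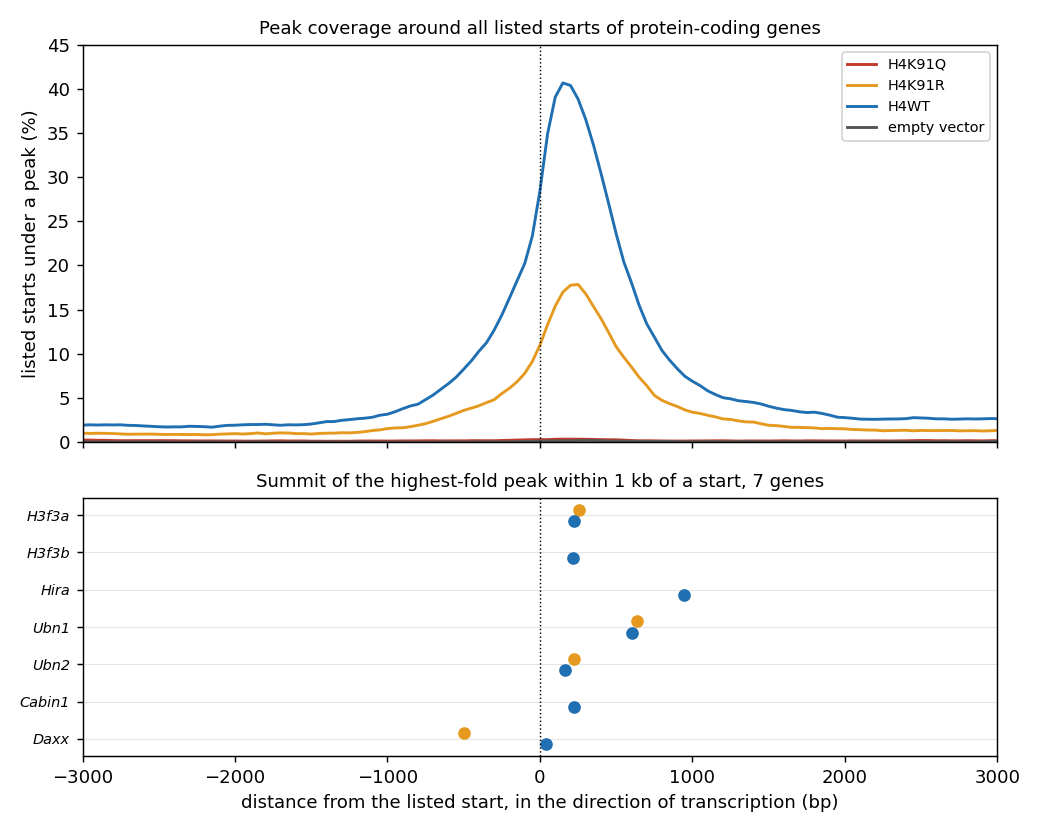
Upper panel: share (%) of 21238 listed starts of protein-coding genes under a peak of each library, by distance from the start in bp in the direction of transcription. Lower panel: summit of the highest-fold peak within 1 kb of a start at each of the 7 genes, for H4K91R (orange, upper dot) and H4WT (blue, lower dot); all 7 H4WT summits lie right of the start, as does the top of the H4WT curve at 150 bp.

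H4K91R peaks at these genes mostly lay on H4WT peaks. Of the 12 H4K91R peaks, 9 overlapped an H4WT peak (75%, 42.8 to 94.5), beside 55.2% over the whole H4K91R list. Of the 34 H4WT peaks, 9 overlapped an H4K91R peak (26.5%, 12.9 to 44.4), beside 38.5% over the whole H4WT list. Both intervals include the shares of the whole lists. The 3 H4K91R peaks off H4WT were those upstream of Daxx and the 2 beside Cabin1. Of the 5 H4K91R peaks near gene ends, 4 were shared with H4WT, at H3f3a (2 peaks), Ubn1 and Ubn2. The same share for H4K91R peaks near the ends of all coding genes was not counted, so this count has no background. Among all genes with an H4WT peak at an end, 61.7% had an H4K91R peak at an end, and among the 6 members it was 4, with Hira and Cabin1 lacking it.

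The other lists of the pathway were counted in the same way, and their differences from all coding genes were not tested. Of 14 genes for H3.3 partners and readers, 5 had an H4K91R peak at an end (35.7%, 12.8 to 64.9, against 38.3% of all coding genes) and 10 an H4WT peak (71.4%, 41.9 to 91.6, against 58.9%). With peaks of a −log10 q of at least 5, H4K91R was at 2 of the 14, against 25.2% of all coding genes. By H4WT fold the highest were Trim28, the KAP1 corepressor (10.8), Chd1, a chromatin remodeller (8.96), and Ep400, another remodeller (8.95). Atrx, which encodes the partner of DAXX, had no H4K91R peak at an end and an H4WT peak of fold 6.58 there. The bodies of the genes in these lists were not searched. The paired histone chaperones Asf1a and Asf1b pass H3 with H4 on to HIRA and to the replication route. Of their genes, Asf1b alone had H4K91R at an end and both had H4WT there. Of 10 genes of the replication-coupled route, 7 had H4K91R at an end (70.0%, 34.8 to 93.3) and 8 had H4WT (80.0%, 44.4 to 97.5). All 4 intervals include the shares of all coding genes. Rbbp4, a histone-binding subunit of CAF-1, led that list with an H4WT fold of 12.4, followed by the histone acetyltransferase gene Hat1 (8.34) and Cdan1 (8.33), whose product binds ASF1. The genes with H4K91R at an end in these lists also had H4WT at an end, as did 94.8% of all coding genes with an H4K91R peak at an end. None had an H4K91Q or empty-vector peak at an end, beside 1.29% and 1.67% of all coding genes. Both counts are near the background.

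The replication-dependent H3 genes, close relatives of H3f3a and H3f3b, had no peak at an end in any of the 4 lists. There were 12 such genes, so the share was 0% (0 to 26.5), against 38.3% of all coding genes for H4K91R and 58.9% for H4WT. These genes lie in clusters of near-identical copies, and how reads that fit several copies were treated is not given in the sources used here, so their values are uncertain. No test compared them with H3f3a and H3f3b.

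**Figure D5:**
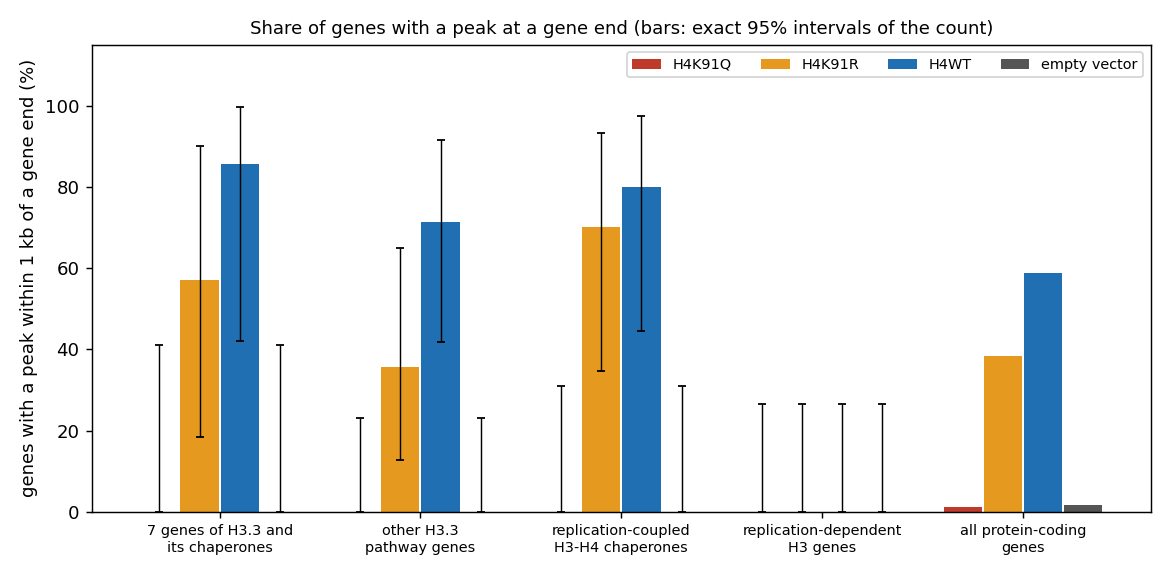
Share (%) of genes with a peak within 1 kb of either annotated end, for 5 sets of genes and, within each, H4K91Q, H4K91R, H4WT and the empty vector from left to right. Thin lines are exact 95% intervals of the counts in the 4 small sets; the H4WT bar is 85.7% for the 7 genes, 0% for the replication-dependent H3 genes and 58.9% for all protein-coding genes.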

How the data were processed

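HA ChIP-seq peak lists of 4 mouse embryonic stem cell pulldowns were used, 1 library per group, with groups taken from the sample titles. Per the submitters' processing notes, MACS2 and the mm10 build were used, and names inside the lists pair every pulldown with input DNA from the same line. Aligner, caller version, q threshold and duplicate handling were not given in the sources used here. For every peak the deposited lists hold the authors' fold (a ratio to background), a −log10 q, a −log10 p that was not used, and a score equal to 10 times the −log10 q rounded down. The lists hold no read counts, so depth is unknown and list length can move with it.

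Gene ends came from the RefSeq table of GRCm38.p6 (21887 coding genes on named chromosomes) and starts from its promoter table, which holds 17492 of them. Peaks were placed by an overlap of at least 1 bp: within 1 kb of a gene end, else in the body, else in the 5 kb flank. Shares have exact 95% intervals (scipy 1.17.1), and no test between libraries was made. The code for gene-end calls was checked on planted peaks, and 100% of 200 planted genes were called. Every planted peak was set to meet the gene-end window, so this checks the code and not how many places the lists miss. All 24 symbols listed for the comparison sets matched, and 12 H3 genes were taken by symbol pattern. The members and lists were chosen with earlier results of these data known. Named were all 7 members, their neighbours within 1 kb, and of each list the 3 genes of highest H4WT fold. Other names (Atrx, Asf1a, Asf1b, H3f3c, H3f3a-ps1, H3f3a-ps2, Susd2, Gm19412, Tapbp, Itgb4 and Galk1) were chosen after their values were seen. Alternatives were windows of 500 bp and 2 kb, flanks of 2 and 10 kb, a −log10 q of at least 5, midpoints, overlap by 50% of each peak, equal list lengths and, added after seeing the data, listed starts and H4WT cut to the H4K91R length.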

Additional observations from a re-analysis of the deposited data

How the results depend on the processing

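Of the counts recomputed under other settings for the 7 genes, the overlap and the 3 lists, 70 stayed within 1.5 times the value given and 6 did not. Many of these counts were 0, and a stricter setting can only keep a 0 at 0. The H4K91Q list is the shortest tagged list, so equal length left it uncut. The tally is therefore no measure of stability for counts of 0. In lists of equal length, the genes with an H4K91R peak at an end numbered 2, H4K91R peaks at the 7 genes 5 and H4WT peaks 9, since fewer peaks were used. Flanks of 10 kb brought in 2 H4K91Q peaks, both past Hira, and the share of all coding genes with such flanks was not counted. At a −log10 q of at least 5, the empty-vector peak at Cabin1 was lost (0 left), and 2 of the 14 other pathway genes had H4K91R at an end, in place of 5, against 25.2% of all coding genes. The equal-length setting does not apply to the empty vector, which was not shortened, nor does leaving out empty-vector overlaps. Counts per gene and library moved in 15 cases and stayed in 146, many of the latter also counts of 0. In lists of equal length, H4WT peaks at Cabin1 numbered 1 in place of 13, and at Hira 0 in place of 4. H4WT cut to the H4K91R length had end peaks at 6 genes, against 54.1% of all coding genes. No paired analysis was possible because each group has 1 library and no test was made. Without read numbers, a place without a peak cannot be told apart from one too shallowly sequenced.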

Other observations

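Beyond the 5 kb windows, the far side of H3f3b held more H4WT peaks than the gene, which had 1. H4K91R had 1 peak of fold 6.63 there, in Itgb4, 14.5 kb past H3f3b and over an H4WT peak of fold 9.68. Between 9.12 and 13.8 kb past the gene, H4WT had 6 peaks, in Galk1, the galactokinase gene, and Itgb4, with folds of 5.05 to 9.68. An empty-vector peak of fold 4.41 lay in Galk1 and met no tagged peak. Over the whole empty-vector list, 70.0% of peaks overlapped an H4WT peak and 43.2% an H4K91R peak.

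The far side of Cabin1 ran into Susd2 with peaks of both histones. Between 5.37 and 7.54 kb past Cabin1, H4K91R had 3 peaks with folds of 4.42 to 5.43, and 2 of them overlapped H4WT peaks of fold 8.93 and 8.11. These values are given without a test.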
